A study of Homo sapiens with 12 samples.

Results

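The ATP-binding cassette (ABC) transporter genes were described in Ewing sarcoma cells before and after withdrawal of the RRM1 subunit of ribonucleotide reductase. The members were all rows of the count table whose gene symbol is ABC, a subfamily letter from A to G and a number, which gave 33 of 20771 genes. The family was put forward because ABCB1 and ABCA8 had been seen to rise at 48 h in both cell lines, so the 48 h values of all members are given as a description, and no p is given for ABCB1 or ABCA8. EW8-RRM1-KO and TC71-RRM1-KO are lines derived from the Ewing sarcoma lines EW8 and TC71, in which CRISPR/Cas9 disrupted the endogenous RRM1 gene and a codon-optimised RRM1 transgene under a doxycycline-inducible promoter keeps the cells growing. Each line is a single-cell clone, and all 4 groups carry the knockout and the transgene. The libraries labelled 0 h came from cells with doxycycline and those labelled 48 h from cells without doxycycline for 48 h, with 3 replicates in each of the 4 groups and 12 libraries in all. Loss of RRM1 and withdrawal of doxycycline itself cannot be told apart in this design. The labels do not say whether replicates were separate cultures, so errors and p-values measure the spread between libraries, which may be technical.

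ABC transporters bind and hydrolyse ATP to move substrates across membranes. Several, among them P-glycoprotein (ABCB1), the multidrug resistance proteins of subfamily C and ABCG2, export drugs, and P-glycoprotein transports doxorubicin, vincristine and etoposide, which are used to treat Ewing sarcoma. Subfamily A moves lipids and sterols, subfamily D and part of subfamily B serve peroxisomes, lysosomes and mitochondria, and the members of subfamilies E and F have no membrane-spanning part and work on ribosomes and translation.

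Total counts per library ran from 18468485 to 35698991. The members took 0.159% to 0.163% of counts in EW8 at 0 h, 0.168% to 0.169% in EW8 at 48 h, 0.188% to 0.190% in TC71 at 0 h and 0.184% to 0.189% in TC71 at 48 h. Counts of RRM1, the targeted gene, were 214, 166 and 317 in EW8 at 0 h and 1201, 1449 and 1514 at 48 h, and in TC71 422, 316 and 418 (0 h) and 674, 707 and 778 (48 h). The RRM1 row was therefore higher in every library labelled 48 h, and it does not show the protein or how much of the codon-optimised transgene it counts. All 8 listed Ewing sarcoma markers were present, with CD99, a surface glycoprotein of these tumours, at group means of 244 to 334 CPM (counts scaled to library size, with TMM factors). Of 5 markers of other cell types, PECAM1 and MYOD1 were not analysed here, PTPRC and ALB did not exceed a mean of 0.14 CPM in any group, and EPCAM reached 1.46 CPM in TC71 at 48 h.

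Of the 33 members, 28 passed the filter on low counts and were tested among 16515 genes. A gene was called when edgeR's quasi-likelihood test gave a Benjamini-Hochberg adjusted p below 0.05 over all genes tested and the fold was above 2. In EW8, 7 members were called higher at 48 h (ABCB1, ABCA8, ABCA6, ABCA9, ABCA10, ABCA5 and ABCA7), where 13.9% of all genes tested were, and 0 were called lower, where 3.35% of genes were. With no fold threshold, 14 members passed as higher, against 37.0% of genes, and 9 as lower, against 31.6%. In TC71, 2 members (ABCB1 and ABCA8) were called higher, against 3.26% of genes, and 0 lower, against 0.854%. With no fold threshold, 8 members passed as higher in TC71 (22.9% of genes) and 7 as lower (19.2%). These contrasts led to the choice of the family, and nothing is read from the shares.

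Separation of the libraries was counted over all members, tested or not. In EW8, 14 of the 33 members were higher in every 48 h library than in every 0 h library, as were 33.6% of the 20771 genes, 11 were lower (28.2% of genes), and the groups overlapped for 8. In TC71, 8 members were higher (22.3% of genes), 9 were lower (20.4% of genes) and 16 overlapped.

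**Figure D1:**
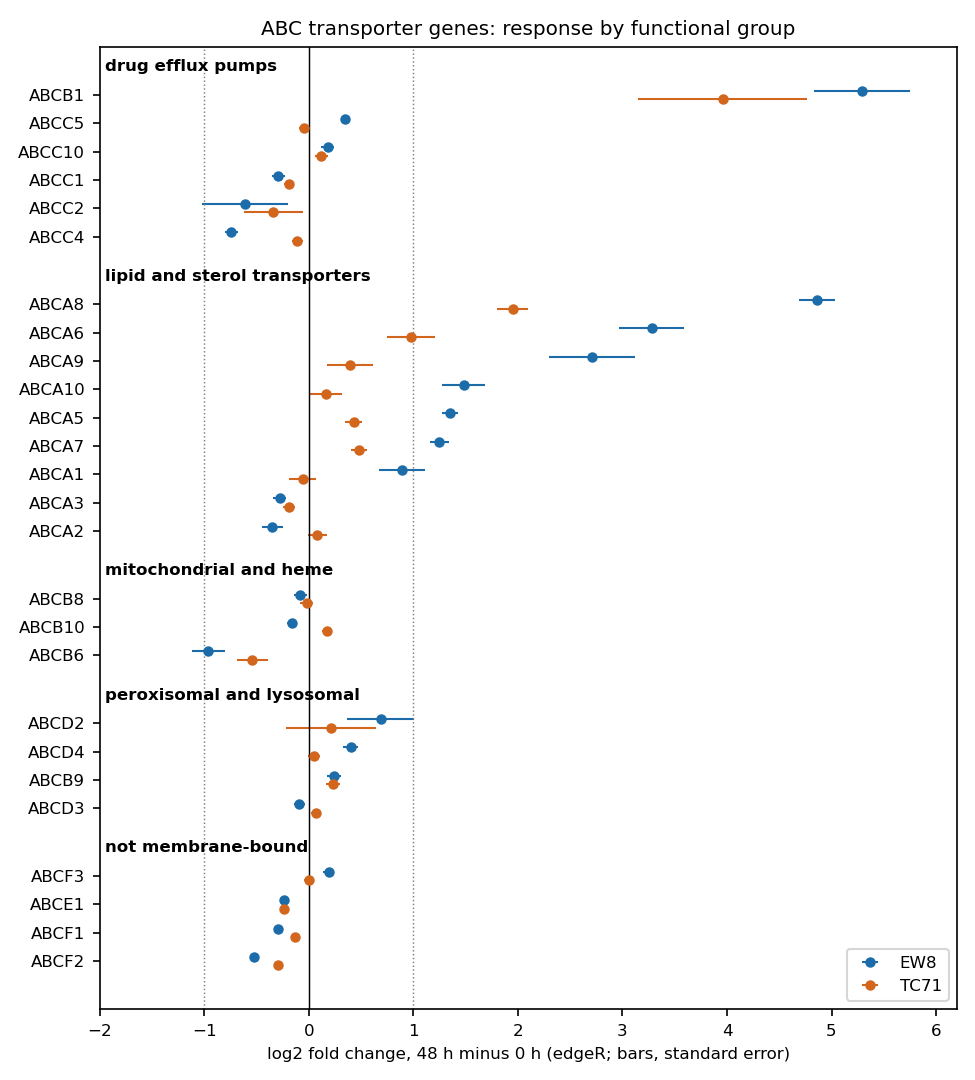
Fitted log2 fold change (48 h minus 0 h, horizontal axis) of 26 of the 28 tested members, grouped by function, with EW8 in blue and TC71 in orange and bars giving the standard error; dotted lines mark a fold of 2. ABCB1 stood alone among the drug efflux pumps at 5.29 and 3.96, whereas 6 of the 9 tested lipid and sterol transporters lay beyond the dotted line in EW8.

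ABCB1 (ENSG00000085563) encodes P-glycoprotein and lies on chromosome 7 (87503017 to 87713323, − strand, hg38, GENCODE release 44). Its counts in EW8 were 1, 1 and 1 (0 h) and 31, 36 and 40 (48 h). Its counts in TC71 were 0, 0 and 1 (0 h) and 5, 11 and 9 (48 h). No 0 h library of either line overlapped the 48 h libraries, and the EW8 48 h libraries were all above those of TC71.

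Normalised ABCB1 levels in EW8 were 0.0438 ± 0.0134 CPM (SD, n = 3) at 0 h and 1.80 ± 0.155 at 48 h, and in TC71 0.0138 ± 0.0239 and 0.293 ± 0.110. EW8 gave a fitted log2 fold change of 5.29 ± 0.46 (SE) and TC71 3.96 ± 0.81, but at 3 counts and 1 count over the 0 h groups the size of the fold was poorly fixed. The ratio of summed counts, scaled to library size, was 44 in EW8 (exact conditional 95% interval 14.7 to 217) and 20.9 in TC71 (3.42 to 859), where the intervals cover counting error only. ABCB1 reached the filter's cutoff of 0.412 CPM (before TMM scaling) only in the 3 EW8 libraries and 1 TC71 library at 48 h, so it entered the test through the groups in which it was high. Even at its highest, ABCB1 was at 0.281 ± 0.0241 CPM per kb of exon, against 13.9 ± 0.603 for ABCC5 in the same libraries. In bulk RNA, more cells with ABCB1 transcripts and more transcripts per cell cannot be told apart.

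**Figure D2:**
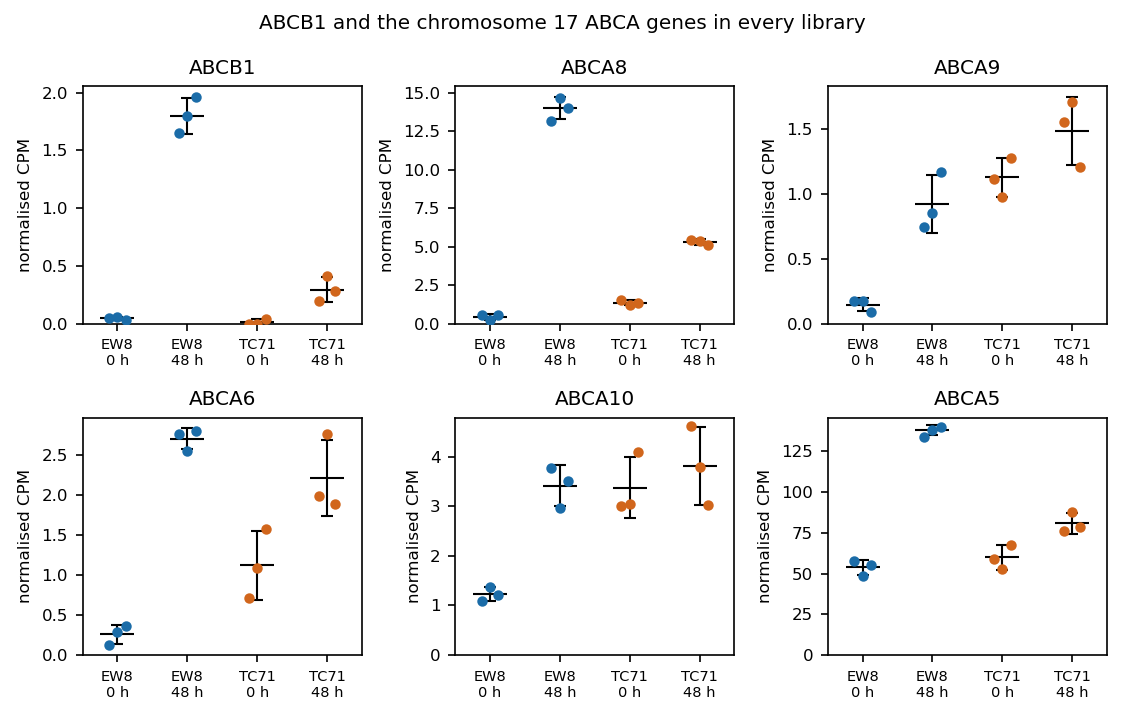
Normalised CPM of ABCB1 and the 5 ABCA genes of chromosome 17 in each of the 12 libraries (points), with the group mean and SD (black bars, n = 3). The 48 h libraries stood clear of the 0 h libraries in both lines for ABCB1, ABCA8, ABCA6 and ABCA5, and in EW8 but not in TC71 for ABCA9 and ABCA10.

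Of the 9 listed drug efflux pumps, 7 were analysed and 6 were tested, and ABCB1, whose rise led to the choice of the family, was the only pump called in either line, where 13.9% of all genes tested were called higher in EW8 and 3.26% in TC71. With no fold threshold, 2 more passed as higher and 2 as lower in EW8 (37.0% and 31.6% of all genes tested), and 1 as lower in TC71 (19.2% of genes). ABCC5, a multidrug resistance protein that exports nucleotide analogues, was the pump with the highest level per kb, and had 123, 126 and 124 CPM in EW8 at 0 h and 151, 160 and 164 at 48 h. The EW8 libraries did not overlap and the log2 fold change was 0.35 ± 0.04, whereas in TC71 the values were 143, 135 and 150 CPM at 0 h and 142, 140 and 133 at 48 h, which overlapped (−0.05 ± 0.04).

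ABCC4, which exports cyclic nucleotides and nucleoside analogues, had 44.4, 46.1 and 47.5 CPM in EW8 at 0 h and 26.0, 30.5 and 26.3 at 48 h. In TC71 it had 63.8, 64.1 and 62.6 CPM at 0 h and 57.5, 60.2 and 59.2 at 48 h. Every 48 h library was below every 0 h library in both lines, but the fitted change was −0.74 ± 0.06 (log2) in EW8, where it passed the adjusted p with a fold under 2, and −0.11 ± 0.05 in TC71, where it did not pass.

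ABCC1, an exporter of glutathione conjugates and anthracyclines, was at 51.8, 57.1 and 50.1 CPM in EW8 at 0 h and at 45.1, 41.8 and 42.7 at 48 h. In TC71 it was at 60.8, 63.9 and 59.2 CPM at 0 h and at 51.9, 53.1 and 56.0 at 48 h. The groups did not overlap in either line, and the log2 fold changes were −0.29 ± 0.06 and −0.19 ± 0.05. ABCC10, another multidrug resistance protein, had log2 fold changes of 0.18 ± 0.06 in EW8 and 0.12 ± 0.06 in TC71 with overlapping libraries, and passed in EW8. ABCC2, an apical exporter of conjugates in liver, had group means of 0.320 to 0.839 CPM, with log2 fold changes of −0.61 ± 0.41 and −0.34 ± 0.28 that did not pass the test.

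ABCG2, the breast cancer resistance protein, separated the lines rather than the times. It had in EW8 9, 4 and 10 counts (0 h) and 6, 7 and 7 (48 h), whereas all 6 TC71 libraries held 0. Set against a floor of 3 counts over the TC71 group, the scaled EW8 level was 7.49 times the floor at 0 h and 9.61 times at 48 h. These ratios leave out the counting error of the EW8 counts. The counts were under the filter, so ABCG2 was not tested.

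Set side by side, the 6 tested efflux pumps had a median log2 fold change of −0.05 in EW8 and −0.08 in TC71. The 22 tested members of other function had medians of 0.21 and 0.08, and all genes tested 0.03 and 0.00. The median of the pumps became −0.29 in EW8 without ABCB1 and 0.07 when libraries were scaled to total counts alone, a scaling that moved the median of all genes by 0.13 in EW8, 0.05 in TC71 and −0.13 in the difference between the lines at 0 h. The lipid and sterol transporters had medians of 1.35 and 0.39, which became 0.31 and 0.01 without the 5 genes of a chromosome 17 cluster described next. The medians were 0.40 and 0.21 for the peroxisomal and lysosomal members, −0.12 and −0.10 for the mitochondrial members, and −0.26 and −0.18 for the members that are not membrane-bound. No test was made between the groups of members, since the 48 h values were known when the family was chosen.

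Of the 17 listed lipid and sterol transporters 12 were analysed and 9, all of subfamily A, were tested. In EW8, 6 of the 9 were called higher, ABCA1 passed with a fold under 2, and ABCA2 and ABCA3 passed as lower with small folds, where 13.9% of all genes tested were called higher and, with no fold threshold, 37.0% passed as higher and 31.6% as lower. In TC71, where the shares were 3.26%, 22.9% and 19.2%, ABCA8 was called, ABCA5, ABCA6 and ABCA7 passed as higher with a fold under 2, ABCA3 passed as lower, and ABCA1, ABCA2, ABCA9 and ABCA10 did not pass.

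Of the 6 called in EW8, 5 are neighbours on chromosome 17, a grouping made after their values were seen. In the order of the chromosome they are ABCA8 (68867289 to 68955392), ABCA9 (68974488 to 69060949), ABCA6 (69078702 to 69141895), ABCA10 (69147214 to 69244846) and ABCA5 (69244311 to 69327244), all on the − strand. They are related copies, and how the counting treated reads that fit more than 1 of them is not given in the sources used here.

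ABCA8 (ENSG00000141338), which takes part in cholesterol and phospholipid export, had in EW8 13, 4 and 18 counts (0 h) and 249, 293 and 287 (48 h). Its counts in TC71 were 41, 24 and 33 (0 h) and 143, 144 and 165 (48 h). The libraries were far apart in both lines, and TC71 started higher and ended lower than EW8: 0.449 ± 0.191 and 14.0 ± 0.726 CPM in EW8 against 1.36 ± 0.175 and 5.31 ± 0.185 CPM in TC71 (SD, n = 3). The fitted change was 4.86 ± 0.17 on the log2 scale in EW8 and 1.95 ± 0.15 in TC71.

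ABCA6 had in EW8 3, 5 and 12 counts (0 h) and 52, 51 and 57 (48 h) with a log2 fold change of 3.28 ± 0.31. Its counts in TC71 were 19, 22 and 38 (0 h) and 52, 74 and 61 (48 h), a log2 fold change of 0.98 ± 0.23. The groups did not overlap in either line, but the TC71 change lay just under the fold of 2. It passed that fold without TC71 0 h replicate 3 (1.33), without TC71 48 h replicate 1 (1.05) or without TC71 48 h replicate 3 (1.10), and was 1.03 with total counts alone.

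ABCA9 had in EW8 4, 3 and 3 counts (0 h) and 14, 17 and 24 (48 h), and in TC71 30, 20 and 31 (0 h) and 41, 46 and 39 (48 h). ABCA10 had in EW8 25, 24 and 40 counts (0 h) and 71, 59 and 72 (48 h), and in TC71 81, 62 and 99 (0 h) and 121, 102 and 98 (48 h). Both genes separated the times in EW8 (log2 fold changes 2.71 ± 0.41 and 1.48 ± 0.21) and, after scaling, overlapped in TC71 (0.39 ± 0.22 and 0.16 ± 0.16). At 48 h the EW8 levels of ABCA10 were 3.42 ± 0.418 CPM, beside 3.38 ± 0.616 CPM in TC71 at 0 h (SD, n = 3).

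ABCA5, a lysosomal member of the family, was far more abundant than its neighbours. It was at 57.7, 48.7 and 55.4 CPM in EW8 at 0 h and at 134, 138 and 140 at 48 h, and at 59.0, 52.8 and 67.8 CPM in TC71 at 0 h and 76.0, 87.9 and 78.4 at 48 h. Both lines separated without overlap, with log2 fold changes of 1.35 ± 0.08 and 0.43 ± 0.08. Per kb of exon ABCA5 was at 4.10 ± 0.355 CPM in EW8 at 0 h, against 0.0162 to 0.146 for the other 4 genes of the cluster. The exons of ABCA10 and ABCA5 overlap by 318 bases on the same strand, which is 3.8% of the exon bases of ABCA10.

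The tested genes on either side, taken for their place, did not all move with the cluster. WIPI1, an autophagy protein, was called higher in EW8 (1.70 ± 0.32) and not in TC71 (0.49 ± 0.38). ARSG, a lysosomal sulfatase, was called lower in EW8 (−1.12 ± 0.24), and PRKAR1A, the nearest tested gene before ABCA8, had a log2 fold change of 0.19 ± 0.04. MAP2K6, a kinase gene beyond ABCA5, fell by less than a fold of 2 in both lines (−0.80 ± 0.07 and −0.24 ± 0.08).

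**Figure D3:**
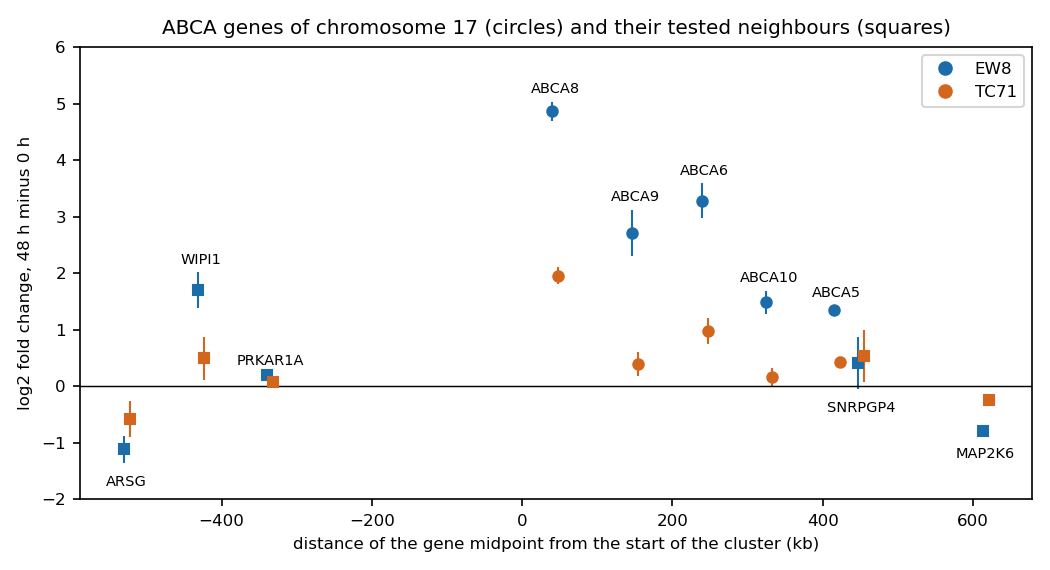
Log2 fold change (48 h minus 0 h, bars give the standard error) against the distance of each gene's midpoint from the start of the chromosome 17 cluster in kb, for the 5 ABCA genes (circles) and the tested genes around them (squares), EW8 in blue and TC71 in orange. The 5 ABCA genes lay between 1.35 and 4.86 in EW8 and between 0.16 and 1.95 in TC71, with PRKAR1A near 0 before them and MAP2K6 below 0 after them.

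Promoter sequences of ABCB1 and of 4 genes of the cluster are shown so that their starts can be compared. ABCA8 and ABCA7 are not shown. They run from 250 bases before to 50 bases after an annotated start (RefSeq, GRCh38.p14), 5′ to 3′ on the gene's strand, and 28 of the 33 members had an entry, with 42 promoters in all. Capitals mark matches on either strand to TGANTCA (the AP-1 motif), TGACGTCA (the cAMP response element), CCAAT or GGGCGG (the GC box). ABCB1 (chr7:87600835-87601134, − strand), at the downstream of its listed starts:
ABCB1: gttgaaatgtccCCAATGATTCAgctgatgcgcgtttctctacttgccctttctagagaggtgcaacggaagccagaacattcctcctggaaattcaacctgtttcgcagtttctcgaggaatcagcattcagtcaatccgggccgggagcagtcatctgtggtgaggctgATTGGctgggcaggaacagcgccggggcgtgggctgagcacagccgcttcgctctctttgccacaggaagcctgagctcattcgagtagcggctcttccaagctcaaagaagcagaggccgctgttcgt
ABCA5 (chr17:69327084-69327383, − strand), the abundant gene of the cluster:
ABCA5: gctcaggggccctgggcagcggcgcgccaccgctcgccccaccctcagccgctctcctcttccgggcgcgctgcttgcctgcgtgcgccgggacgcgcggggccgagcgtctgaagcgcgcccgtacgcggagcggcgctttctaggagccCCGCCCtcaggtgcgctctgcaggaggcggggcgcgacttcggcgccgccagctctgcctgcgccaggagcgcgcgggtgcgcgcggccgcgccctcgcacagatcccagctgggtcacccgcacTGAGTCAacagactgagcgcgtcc
ABCA10 (chr17:69228775-69229074, − strand), ABCA6 (chr17:69141846-69142145, − strand) and ABCA9 (chr17:69060878-69061177, − strand), its low neighbours:
ABCA10: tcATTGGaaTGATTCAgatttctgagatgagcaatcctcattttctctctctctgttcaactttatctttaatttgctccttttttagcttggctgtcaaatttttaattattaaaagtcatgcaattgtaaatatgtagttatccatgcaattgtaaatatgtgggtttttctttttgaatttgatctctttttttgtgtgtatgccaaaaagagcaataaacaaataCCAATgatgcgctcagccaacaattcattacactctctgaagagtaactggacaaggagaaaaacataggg
ABCA6: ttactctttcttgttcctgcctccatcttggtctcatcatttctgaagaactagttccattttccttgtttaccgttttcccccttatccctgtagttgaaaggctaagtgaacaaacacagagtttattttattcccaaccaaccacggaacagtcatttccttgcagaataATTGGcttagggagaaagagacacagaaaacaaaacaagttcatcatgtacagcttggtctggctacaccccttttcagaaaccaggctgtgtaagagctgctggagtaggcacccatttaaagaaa
ABCA9: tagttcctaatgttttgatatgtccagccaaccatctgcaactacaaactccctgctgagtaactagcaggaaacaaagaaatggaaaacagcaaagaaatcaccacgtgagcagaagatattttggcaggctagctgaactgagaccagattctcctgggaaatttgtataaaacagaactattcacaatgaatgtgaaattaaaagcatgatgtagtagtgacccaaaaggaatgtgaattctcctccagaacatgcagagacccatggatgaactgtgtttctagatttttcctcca

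Counting the base before the start as −1, the ABCB1 window holds TGATTCA from −234, which shares a base with a CCAAT that begins at −238, and a second CCAAT, read on the other strand, from −79. The ABCA5 window holds TGAGTCA from position 27 after the start and a GC box on the other strand from −99, and the ABCA10 window holds TGATTCA from −241 and CCAAT matches from −248 and −21. The other listed start of ABCB1 (chr7:87713246-87713545) and that of ABCA10 (chr17:69244799-69245098), both upstream and not shown, hold none of the 4 motifs. ABCA6 has a CCAAT match from −77, and ABCA9 has none of the 4 motifs. TGANTCA was present in 4 of the 42 member promoters (ABCA10, ABCA5, ABCB1 and ABCD2) and in 7.709% of all 35116 promoters. The other motifs were in 1 (TGACGTCA), 11 (CCAAT) and 23 (GGGCGG) of the 42, against 1.848%, 34.614% and 44.954% of all promoters. The windows also differed in base composition: ABCA5 was 76.3% G and C with 45 CG dinucleotides, ABCB1 55.3% with 16, and ABCA6, ABCA9 and ABCA10 41.7%, 39.7% and 32.3% with 2, 1 and 1, against medians of 58.7% and 14 over all promoters. A match is a run of letters in the window and was not tested as a binding site.

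ABCA7, a phospholipid transporter on chromosome 19 that lies outside the cluster, was at 5.6, 7.16 and 6.55 CPM in EW8 at 0 h and at 15, 15.1 and 15.5 at 48 h. In TC71 it was at 11.1, 11.5 and 12.1 CPM at 0 h and at 17.4, 15.4 and 15.6 at 48 h. Neither line overlapped, and the log2 fold changes were 1.25 ± 0.09, the smallest of the called EW8 changes, and 0.48 ± 0.08.

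ABCA1, which loads cholesterol onto apolipoproteins, was at 0.788, 1.15 and 1.13 CPM in EW8 at 0 h and at 1.59, 2.15 and 1.96 at 48 h, and between 3.62 and 4.39 CPM in all TC71 libraries. EW8 separated without overlap (0.89 ± 0.22) and TC71 did not (−0.06 ± 0.13). The EW8 change passed a fold of 2 without EW8 48 h replicate 1 (1.0 after rounding) and with total counts alone (1.02). ABCA3, known from lung surfactant, was the lipid transporter with the highest level per kb, 22.8 ± 1.62 CPM per kb in EW8 and 26.3 ± 1.05 in TC71 at 0 h, and changed by −0.28 ± 0.06 and −0.19 ± 0.06. ABCA2, a lysosomal member abundant in oligodendrocytes, had log2 fold changes of −0.35 ± 0.10 in EW8, which passed, and 0.08 ± 0.09 in TC71, which did not.

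Of the mitochondrial and heme members, none of 4 was called in either line by edgeR with the fold threshold. Of all genes tested, 13.9% were called higher and 3.35% lower in EW8, and 3.26% and 0.854% in TC71. With no fold threshold, ABCB6 passed as lower in both lines, and ABCB10 as lower in EW8 and as higher in TC71. At any fold, 31.6% of all genes tested passed as lower in EW8, and 19.2% as lower and 22.9% as higher in TC71. ABCB6, a porphyrin transporter, had the largest change of the group, from 5.12, 5.38 and 4.69 CPM to 3.29, 2.45 and 2.01 in EW8 and from 3.8, 3.68 and 4.8 CPM to 3.13, 3.06 and 2.35 in TC71. Both lines separated, with log2 fold changes of −0.96 ± 0.16 and −0.54 ± 0.15, and the EW8 change passed a fold of 2 without EW8 0 h replicate 3 (−1.06) or without EW8 48 h replicate 1 (−1.17). Another annotated gene of the same strand covers 54.6% of the exon bases of ABCB6, so its counts are uncertain.

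ABCB10, which works in heme synthesis, was the most abundant of these members per kb, at 17.4 ± 0.209 CPM per kb in EW8 and 17.3 ± 0.293 in TC71 at 0 h. In EW8 it went from 75.2, 73.5 and 74.6 CPM to 64.7, 68.2 and 67.1, and in TC71 from 75.1, 72.7 and 73.3 CPM to 81.2, 83.1 and 84.4. The changes were small, without overlap and opposite in sign, −0.16 ± 0.05 in EW8 and 0.17 ± 0.04 in TC71. With total counts alone the EW8 change was only −0.03. ABCB8, a mitochondrial iron transporter, had log2 fold changes of −0.08 in EW8 and −0.02 in TC71, which did not pass.

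Among the peroxisomal and lysosomal members, none was called at 48 h by edgeR in either line, where 13.9% of all genes tested were called higher in EW8 and 3.26% in TC71. At any fold, 3 passed as higher in EW8 (37.0% of genes) and 2 in TC71 (22.9%). ABCD4, which serves vitamin B12 export from lysosomes, had log2 fold changes of 0.40 ± 0.07 in EW8, which passed, and 0.05 ± 0.06 in TC71. ABCB9, a lysosomal peptide transporter whose exons overlap genes of the opposite strand, passed in both lines (0.24 ± 0.07 and 0.23 ± 0.07). ABCD3, the abundant peroxisomal member at 13.1 ± 1.01 CPM per kb in EW8 and 15.2 ± 0.382 in TC71 at 0 h, and ABCD2 did not pass in either line.

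The members without a membrane-spanning part held the 3 highest levels of the family at 0 h, and 3 of the 4 passed as lower at 48 h in both lines with folds under 2, where 31.6% of all genes tested passed as lower in EW8 and 19.2% in TC71 with no fold threshold. ABCF1, a translation initiation factor, was at 60.0 ± 0.856 CPM per kb in EW8 and 56.0 ± 0.876 in TC71 at 0 h, the highest level of any member, and ABCE1, which splits ribosomes after termination, at 42.2 ± 2.42 and 47.6 ± 1.25. ABCF2 showed the largest change of the 4, from 211, 210 and 207 CPM to 144, 147 and 145 in EW8 and from 152, 151 and 149 CPM to 121, 121 and 127 in TC71. The log2 fold changes were −0.52 ± 0.04 and −0.29 ± 0.04 for ABCF2, −0.29 ± 0.04 and −0.13 ± 0.04 for ABCF1 and −0.24 ± 0.04 in both lines for ABCE1, and all 3 separated without overlap in both lines. ABCF3 had log2 fold changes of 0.19 ± 0.05 in EW8, which passed, and 0.00 ± 0.05 in TC71. Another annotated gene of the same strand covers 37.1% of the exon bases of ABCF2, whose counts are uncertain for that reason.

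The other 5 members were too low to test and did not exceed 10 counts in any library: ABCG2, ABCA12, ABCB4, ABCG4 and ABCC6. ABCB4, the phosphatidylcholine transporter that lies near ABCB1 on chromosome 7 (87401696 to 87480435), went the other way in EW8, from 5, 6 and 6 counts with doxycycline to 1, 0 and 0 without it. The ratio of summed counts was 0.0726 (exact conditional 95% interval 0.00174 to 0.463, counting error only), and in TC71 counts were 1, 2 and 2 and then 0, 2 and 1. ABCA12, a keratinocyte lipid transporter, had 3, 2 and 6 counts and then 8, 10 and 5 in EW8, and 6, 1 and 4 and then 10, 9 and 9 in TC71, and after scaling its 48 h libraries were above its 0 h libraries in both lines. ABCG4 had 2 to 6 counts in every library and ABCC6 had 1 to 9.

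The response of each member was compared between the lines as an interaction (EW8 change minus TC71 change, edgeR, adjusted over all genes tested). It is built from the same libraries as the 48 h changes that led to the family, so the value of ABCA8 is a description, and it shares the 0 h libraries with the comparison of the lines at 0 h. Of the 28 members, 4 were called as higher in EW8, where 7.28% of genes were, and 0 as lower, where 0.981% of genes were. All 4 were of the chromosome 17 cluster: ABCA8 with a difference of 2.91 ± 0.28, ABCA9 with 2.33 ± 0.49 (adjusted p = 0.000151), ABCA6 with 2.30 ± 0.42 (adjusted p = 2.62e-05) and ABCA10 with 1.32 ± 0.26 (adjusted p = 6.79e-05).

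With no fold threshold, 12 members passed as higher in the interaction, against 25.7% of genes, and 6 as lower, against 22.4%. ABCA5 (0.92 ± 0.11, adjusted p = 4.18e-06), ABCA7 (0.77 ± 0.13, adjusted p = 4.97e-06) and ABCC5 (0.40 ± 0.06, adjusted p = 2.96e-06) were among the higher and ABCC4 (−0.63 ± 0.08, adjusted p = 4.22e-08) and ABCB10 (−0.33 ± 0.06, adjusted p = 5.97e-05) among the lower. ABCA1 differed by 0.96 ± 0.25 (adjusted p = 0.00212), and passed a fold of 2 with total counts alone (1.03) and without any 1 of EW8 0 h replicate 3 (1.05), EW8 48 h replicate 1 (1.06), TC71 0 h replicate 2 (1.0 after rounding) or TC71 48 h replicate 2 (1.01). The ABCB1 difference of 1.33 had a standard error of 2.21 and was not called, and it was −0.56 without TC71 0 h replicate 3, the only 0 h library of TC71 with a count.

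**Figure D4:**
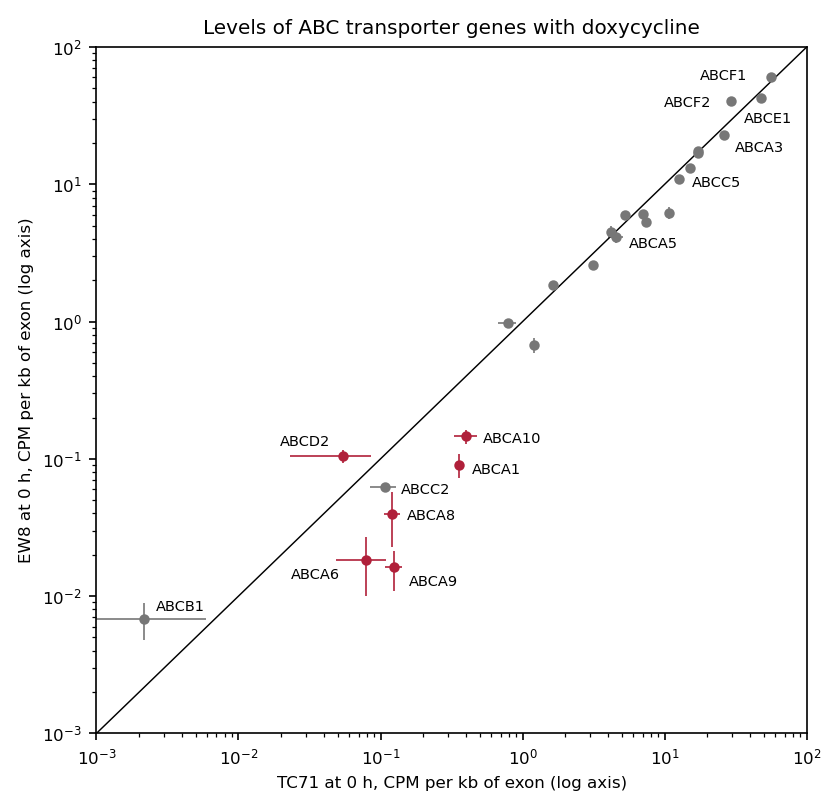
Level of 26 of the 28 tested members at 0 h in EW8 (vertical) against TC71 (horizontal) as CPM per kb of exon on log axes, with SD bars (n = 3), the line of equality, and in red the members called different between the lines; the lower bar of ABCB1 in TC71 runs off the axis. Levels ran from 0.00215 for ABCB1 in TC71 to 60.0 for ABCF1 in EW8, and 5 of the 6 red members lay below the line.

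At 0 h, with doxycycline, 6 members were called lower in EW8 than in TC71, where 11.9% of genes were, and 1 higher, where 4.77% of genes were. The lower members included ABCA9 (log2 difference −3.0 ± 0.38, adjusted p = 2.16e-08), ABCA6 (−2.0 ± 0.37, adjusted p = 1.38e-05), ABCA1 (−1.99 ± 0.18, adjusted p = 7.28e-12), ABCA8 (−1.51 ± 0.26) and ABCA10 (−1.47 ± 0.20, adjusted p = 6.71e-08). Of the cluster, only ABCA5 did not pass, at −0.15 ± 0.08 (adjusted p = 0.124). At 0 h, ABCA9 and ABCA6 reached the filter's cutoff in all 3 TC71 libraries but in 0 of 3 EW8 libraries. ABCD2, a peroxisomal fatty acid transporter, was higher in EW8 at 0.661 ± 0.0725 CPM against 0.340 ± 0.195 in TC71 (1.01 ± 0.39, adjusted p = 0.0241). It reached the filter's cutoff in every EW8 library but in only 1 of 3 libraries of each TC71 group, so it entered the test through the line in which it was high. That call was lost without EW8 0 h replicate 1 (0.93), without TC71 0 h replicate 1 (0.62), with total counts alone (0.88) and with DESeq2, whose log2 difference was the same (1.01).

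Without the fold threshold, 4 members passed as higher in EW8, against 32.8% of genes, and 17 as lower, against 32.9%. None of the 6 tested drug efflux pumps was called different by edgeR between the lines at 0 h, and without the fold threshold 1 passed as higher in EW8 and 4 as lower. ABCC4 was lower in EW8 by a log2 difference of −0.46 ± 0.05 (adjusted p = 2.89e-09), ABCC1 by −0.21 ± 0.05 (adjusted p = 0.000825), ABCC5 by −0.20 ± 0.04 (adjusted p = 0.000174) and ABCC2 by −0.79 ± 0.31 (adjusted p = 0.0272). ABCC10 was higher in EW8 by 0.19 ± 0.06 (adjusted p = 0.00849). ABCF2, of the ribosome-linked members, was higher in EW8 by 0.47 ± 0.04 (adjusted p = 7.33e-13).

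Partner and regulator genes of the family and ABC genes under other symbols were taken as a list of 24, of which 21 were analysed and 20 were tested. In EW8, 3 were called higher and 1 lower (13.9% and 3.35% of all genes tested), and in TC71 0 higher and 2 lower (3.26% and 0.854%). With no fold threshold 8 passed as higher and 6 as lower in EW8 (37.0% and 31.6% of genes) and 6 and 7 in TC71 (22.9% and 19.2%). AHR, a ligand-activated transcription factor, changed by 1.73 ± 0.09 in EW8 and 0.84 ± 0.22 in TC71, and NR1H3, the liver X receptor that drives ABCA1, by 1.20 ± 0.14 and 0.69 ± 0.12. APOE, a lipid acceptor, changed by 1.36 ± 0.25 and 0.32 ± 0.08, from 1.35 CPM in EW8 and 70.4 CPM in TC71 at 0 h. KCNJ11, a potassium channel subunit that pairs with ABCC8, was called lower in both lines (−3.06 ± 0.46 and −1.84 ± 0.58), from 22, 23 and 40 counts to 0, 6 and 2 in EW8 and from 13, 5 and 7 to 2, 4 and 2 in TC71. It entered the test through its 0 h libraries, in which it was high. TAP2, an ABC peptide transporter of antigen presentation, was called lower in TC71 (−1.57 ± 0.47, from 13, 7 and 13 counts to 7, 4 and 2) and not in EW8 (−0.10 ± 0.22).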

How the data were processed

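RNA of 12 libraries was prepared by poly(A) selection with a stranded kit. Per the labels, the authors used FastQC for read quality and STAR for alignment, with hg38 as the build. The counting program, its annotation and its strand setting are not given in the sources used here. The deposited values are raw counts per gene, whole numbers with no normalization, and the lowest sum of a gene over the libraries was 21.

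The test was edgeR's quasi-likelihood test (version 4.0.16, under R 4.3.3, filterByExpr with a minimum count of 10 and a minimum total of 15, TMM factors, robust fit over the 4 groups, Benjamini-Hochberg adjustment). Each line's 48 h group was set against its 0 h group, the resulting changes against each other, and EW8 against TC71 at 0 h. The biological coefficient of variation was 4.17%. Depth ran from 18468485 to 35698991 counts. Levels per kb used exon lengths of GENCODE release 44. Alternatives were other scalings, filters, DESeq2 1.42.0, a replicate block, each line alone, no fold threshold and leaving out each library. The procedure was also run on simulated data, in which changes were set only in genes with a mean above 10 counts. That run was no check of genes with lower means. Plots used matplotlib 3.10.9 (Python 3.11.15).

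Named genes were ABCB1, ABCA8, all drug efflux pumps, all members called at 48 h or in the interaction, the 5 most different at 0 h in each direction, the most abundant member of each functional group, RRM1 and the 5 partner genes with the largest called change. Other members are given with their values, except that some members are counted in the totals but not reported here. The members, groups and lists were chosen with earlier results of these data known.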

Additional observations from a re-analysis of the deposited data

Results flagged for a closer look

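For 3 members, ABCA9, ABCA6 and ABCA10, the response to withdrawal of doxycycline differed between the cell lines by the interaction test of edgeR, with the larger change in EW8. ABCA8 also passed, but its 48 h changes led to the choice of the family, so its value is a description. The interaction uses the 48 h libraries whose contrasts were known at that choice. The values of ABCA9, ABCA6 and ABCA10 are therefore not independent of it either. The log2 difference was 2.91 for ABCA8 (4.86 in EW8 against 1.95 in TC71), 2.33 for ABCA9 (2.71 against 0.39), 2.30 for ABCA6 (3.28 against 0.98) and 1.32 for ABCA10 (1.48 against 0.16). All 4 are neighbours on chromosome 17. All 4 were also called lower in EW8 than in TC71 at 0 h, so the larger changes began from lower levels. In EW8 at 0 h the lowest were ABCA9, with 4, 3 and 3 counts, and ABCA6, with 3, 5 and 12. With 3 libraries a group, single libraries were not screened as outliers.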

How the results depend on the processing

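ABCB1 and ABCA8 rose in both lines under every scaling, under DESeq2 and with each library left out, and ABCB1 ranged from 3.43 to 5.84 in TC71. The rise of both genes led to the choice of the family. These refits used the same libraries, so they describe the rise and add no support for it. Requiring at least 10 counts in every library left 22 members tested and removed ABCB1, ABCA8, ABCA9 and ABCA6 with them: calls became 3 higher in EW8, 0 in TC71, 1 in the difference of responses, and 3 lower and 0 higher at 0 h. With no fold threshold the calls became 14 higher and 9 lower in EW8, 8 and 7 in TC71, 12 and 6 in the difference, and 4 and 17 at 0 h. With no filter, ABCA12 was called higher in EW8 (8 calls), ABCB4 was called lower there (1 call), and ABCG2 and ABCB4 joined ABCD2 as higher at 0 h (3 calls). With each line fitted alone, TC71 had 1 call, since ABCB1 failed the filter there. ABCD2 was lost at 0 h, giving 0 calls, with total counts alone and with DESeq2. Leaving out each library in turn, calls lower in EW8 ranged from 0 to 1 and calls higher at 0 h from 0 to 1. With total counts alone the median of the efflux pumps in EW8 became 0.07, and it became −0.29 without ABCB1, an alternative chosen after seeing the data, as were the medians of the lipid transporters without the chromosome 17 genes, 0.31 in EW8 and 0.01 in TC71. Signs turned for ABCD3 in EW8 (0.03) and ABCC5 in TC71 (0.00) with total counts alone, for ABCA1 in TC71 (range −0.13 to 0.00 over libraries left out) and for the ABCB1 difference (range −0.56 to 1.85). None of these 4 was called.

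With the replicate block the calls were 7 higher and 0 lower in EW8, 2 and 0 in TC71, 4 and 0 in the difference, and 1 and 6 at 0 h. Deviations of libraries with the same number correlated between −0.138 and −0.015. No pairing by number was seen in these values, but with 3 libraries a group they cannot exclude it.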
